A study of Mus musculus with 60 samples.

Results

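The step from the 2-cell to the 4-cell stage in mouse embryos fertilized in vivo was examined in 6 of the 60 RNA-seq libraries of a study on somatic cell nuclear transfer (SCNT). The 6 libraries were chosen by their labels, 3 from 2-cell and 3 from 4-cell embryos, and all 27238 genes of the expression table were considered. Each library came from 1 embryo picked for normal morphology, carried no transgene or drug, and had the label strain BDF1. The parents were superovulated C57BL/6 females and DBA2 males, and the age of the females was not given in the sources used here. Expression was given as RPKM, the reads on a gene divided by its exon length and by the library total. A change was computed as the difference of mean log2(RPKM + 1), 4-cell minus 2-cell, and was called at a limma adjusted p under 0.05 with a size of at least 1. This scale understates the change of genes at low levels. In the comparisons that follow, in vivo 1-cell and 8-cell embryos and the 2-cell and 4-cell embryos of NTC and NTM, 3 of each, were also used. NTC embryos were reconstructed from enucleated oocytes of superovulated BDF1 females, aged 8 to 10 weeks, with nuclei of BDF1 cumulus cells, and NTM embryos in the same way with nuclei of BDF1 mouse embryonic fibroblasts, and both were activated with strontium, exposed to Scriptaid, an inhibitor of histone deacetylases, and cultured in vitro. The eggs came from BDF1 females in NTC and NTM and from C57BL/6 females in vivo. Enucleation, culture, activation, the inhibitor, the egg strain and the donor nucleus therefore differ from the in vivo embryos together and cannot be told apart.

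The oocyte stops transcribing before ovulation and loads the egg with stored mRNA and protein. After fertilization this maternal mRNA is deadenylated and degraded, while the embryo's own genome is activated, in mouse mainly during the 2-cell stage. The 4-cell embryo is thus known as the stage that runs largely on its own transcripts, before its cells compact, polarize and choose between inner cell mass and trophectoderm.

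The reads on genes, recovered from the steps of the RPKM values, were 13894745 to 18619638 in the 2-cell libraries and 13148899 to 16323451 in the 4-cell libraries, and 3 reads on a transcript of 2000 nt corresponded to 0.0806 to 0.114 RPKM. Values below this floor rest on counting error alone. The 4-cell embryos resembled each other closely, with correlations of log2(RPKM + 1) of 0.925 to 0.945 across genes. The 2-cell embryos did so less, with 0.845 between embryos 1 and 2, 0.778 between 1 and 3 and 0.736 between 2 and 3, and the median SD of a gene was 0.675 in 2-cell and 0.36 in 4-cell embryos on the log2 scale. A 2-cell and a 4-cell library correlated at 0.186 to 0.253 only, whereas 2-cell and 1-cell libraries reached 0.722 to 0.918, and 4-cell and 8-cell libraries 0.709 to 0.768. Mitochondrially encoded genes took 7.32, 11.1 and 12.7% of reads in the 2-cell libraries, 8.87, 6.88 and 5.68% in the 4-cell libraries and 32.1 to 45.0% in the 8-cell libraries. RPKM is relative to the total of a library, so a fall in the RNA of a gene and a rise in the RNA of all others cannot be told apart in these values, and neither can fewer expressing cells and less RNA per cell. An ERCC spike-in had been added to each lysate, and its reads were not analysed here. The p-values measure the spread between single embryos of 1 stage.

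Of 12995 genes with a mean of at least 0.5 RPKM, 6784 (52.2%) were called. They were 4078 genes that rose (31.4%) and 2706 that fell (20.8%), and the median log2 change over all genes tested was 0.36, or 0.24 when libraries were scaled by median ratios. The values of the 3 and 3 embryos did not overlap for 7974 genes (61.4%). Changes were large: 1008 genes rose and 560 fell by at least 4 on the log2 scale, and 54 rose and 15 fell by at least 8. A total of 568 genes were listed at 0 in every 2-cell embryo and at 1 RPKM or more in every 4-cell embryo, of which 222 reached 5 RPKM. The converse was found for 302 genes, of which 118 had 5 RPKM or more in every 2-cell embryo.

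**Figure D1:**
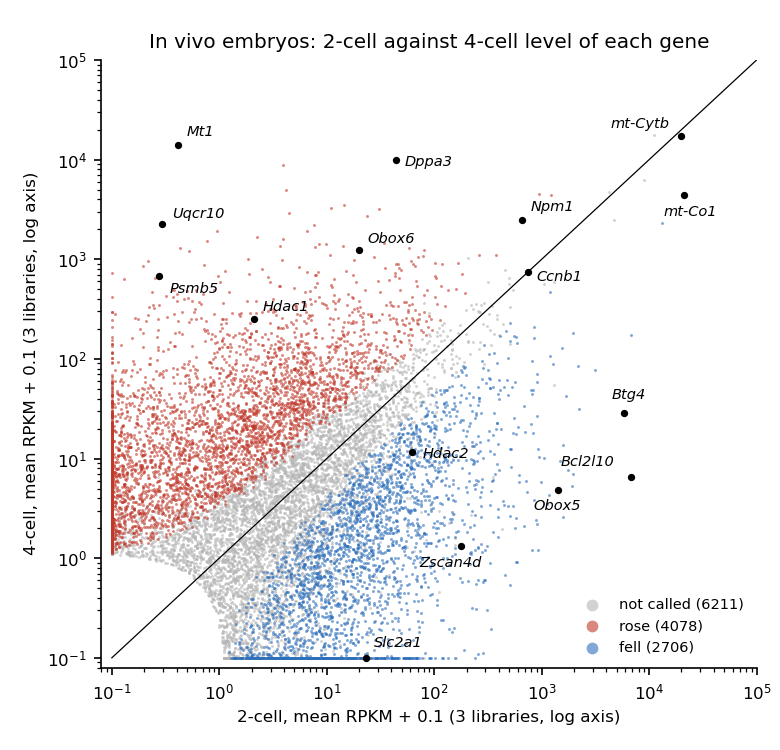
Mean RPKM of each tested gene at the 2-cell stage (x axis) against the 4-cell stage (y axis), with 0.1 added, on log axes. Each point is 1 gene and each mean is over 3 embryos. Genes that rose (4078) and fell (2706) are colored, and the genes along both axes are those near 0 at the other stage.

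The called genes were followed through the other stages, their 2-cell and 4-cell levels being those that made the call. Genes that fell were mostly present in the 1-cell embryo, where 118 of the 2706 (4.36%) had a mean under 1 RPKM and 23 were listed at 0 in every library. Their median level was 16.9, 19.1, 0.902 and 0.21 RPKM in 1-, 2-, 4- and 8-cell embryos. Genes that rose had medians of 0.613, 0.636, 16.6 and 3.53 RPKM at the 1-, 2-, 4- and 8-cell stages. The 4-cell mean exceeded that of every other in vivo stage for 3098 of the 4078 rising genes (76.0%), and the 8-cell mean was above the 2-cell mean for 3172 of them (77.8%). The 8-cell mean of 1112 rising genes (27.3%) was at least 0.5 times the 4-cell mean, and that of 2282 (56.0%) was under 0.25 times. Mitochondrial reads, which count in the library total, made up 5.68 to 8.87% in these 4-cell libraries and 32.1 to 45.0% in 8-cell libraries. In NTC and NTM 4-cell libraries they made up 29.6 to 40.4%. A larger mitochondrial share lowers the RPKM of nuclear genes, and these levels and ratios were not recomputed over nuclear genes only. The 4-cell libraries also listed more genes above 0 (13576 to 13932) than the 8-cell libraries (9913 to 10304) and the NTC and NTM 4-cell libraries (8997 to 11929), and the rising genes had medians of 5.9 and 6.05 RPKM in NTC and NTM 4-cell embryos beside 16.6 RPKM in vivo. The labels name no batch, the 3 libraries are the whole 4-cell group, and the part of this difference in the results was not tested. The direction was read again in 1-cell and 8-cell embryos, which share no library with the transition. Of the rising genes, 3136 were testable there, and 1320 (42.1%) were higher and 121 (3.86%) lower at the 8-cell stage, against 15.5% and 29.7% of all 10774 genes tested. Of 2602 testable falling genes, 1910 (73.4%) were lower at the 8-cell stage and 14 were higher. In that comparison the split of calls depended on scaling, with 34.2% of called genes higher as deposited and 48.8% after median-ratio scaling.

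Mt1 had the largest rise outside the predicted genes. Mt1 and Mt2 encode metallothioneins, small cysteine-rich proteins that bind zinc and copper. Mt1 had 0, 0.933 and 0 RPKM at the 2-cell stage and 13732, 16078 and 12698 RPKM at the 4-cell stage, the highest mean of any nuclear gene in the 4-cell libraries (log2 change 13.47 ± 0.36 (SE), limma adjusted p = 1.63e-05). Mt2 followed with 0.29, 0 and 0 RPKM at the 2-cell stage and 866, 968 and 753 RPKM at the 4-cell stage (log2 change 9.62 ± 0.33 (SE), limma adjusted p = 1.77e-05). Both were near or at 0 in every 2-cell embryo and high in every 4-cell embryo, and both were low again in 8-cell embryos, with means of 45.7 and 1.73 RPKM. The 250 bases upstream of each gene are shown since the pair lies side by side on chromosome 8 and moved together. Capitals mark TGCACNC or TGCGCNC, the core of the metal response element that the zinc-sensing factor Mtf1 binds, on either strand. The letters matched once in the Mt1 window and 3 times in the Mt2 window, and 21.3% of all 27025 promoters in the table hold at least 1 match. Each window ends before the first start listed for the gene, and matches outside it were not counted.
Mt1 (GRCm38.p6, chr8:94178839-94179088, + strand): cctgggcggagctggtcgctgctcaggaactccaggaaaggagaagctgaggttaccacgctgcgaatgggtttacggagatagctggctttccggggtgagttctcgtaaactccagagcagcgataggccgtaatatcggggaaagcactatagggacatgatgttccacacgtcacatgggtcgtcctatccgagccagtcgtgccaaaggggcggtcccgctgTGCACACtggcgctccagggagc
Mt2 (GRCm38.p6, chr8:94172368-94172617, + strand): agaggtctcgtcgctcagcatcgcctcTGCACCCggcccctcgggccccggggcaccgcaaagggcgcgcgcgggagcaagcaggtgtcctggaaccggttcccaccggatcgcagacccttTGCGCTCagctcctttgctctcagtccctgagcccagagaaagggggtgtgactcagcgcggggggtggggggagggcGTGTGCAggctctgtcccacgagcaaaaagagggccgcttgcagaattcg

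Isyna1, the synthase of myo-inositol, went from 1.23, 0.0392 and 0 to 742, 2027 and 848 RPKM, with no overlap between stages (log2 change 9.68 ± 0.53 (SE), limma adjusted p = 2.7e-05). Timd2, a cell surface receptor for ferritin, had 0, 0 and 2 RPKM at the 2-cell stage and 1516, 1605 and 1422 RPKM at the 4-cell stage and remained at a mean of 427 RPKM in 8-cell embryos. Among the genes listed at 0 in every 2-cell embryo, the spliceosome gene Snrpb had 412, 413 and 436 RPKM, the homocysteine methyltransferase Bhmt 284, 316 and 294 RPKM, the small GTPase Rab20 248, 201 and 290 RPKM and the lysosomal protease Ctsz 195, 175 and 253 RPKM in the 4-cell embryos. All 4 rose with limma adjusted p of 1.77e-05 each. Hist1h2ap and Hist1h4d, replication-dependent histone genes, were also listed at 0 in the 2-cell embryos and had 1248, 317 and 603 RPKM and 426, 223 and 244 RPKM at the 4-cell stage. Their mRNAs normally lack a poly(A) tail, and reads may be shared among their near-identical copies. The 5 highest 4-cell means were those of Mt1, Dppa3, mt-Nd1, mt-Cytb and the predicted gene Gm12617. Gm12617 was at 0, 0 and 11.4 RPKM at the 2-cell stage and 10642, 7547 and 8025 RPKM at the 4-cell stage.

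mRNAs stored in the egg fell. Of 36 oocyte factors tested 27 fell (75.0%, against 20.8% of all genes) and 2 rose (median log2 change -4.31, against 0.36 for all genes tested). Bcl2l10, an oocyte-enriched member of the Bcl2 family, showed the deepest fall of all genes outside the predicted ones, with 5103, 5760 and 9555 RPKM at the 2-cell stage and 7.79, 6.44 and 5.27 RPKM at the 4-cell stage (log2 change -9.78 ± 0.34 (SE), limma adjusted p = 1.77e-05). Rfpl4, a RING finger protein of the egg, fell from 962, 1474 and 2262 to 3.08, 2 and 2.34 RPKM. Bmp15 and Gdf9, the growth factors the oocyte sends to its cumulus cells, fell from 1471, 1057 and 1001 to 5.44, 5.83 and 1.3 RPKM and from 163, 122 and 99.7 to 5.73, 7.6 and 5.58 RPKM, without overlap between stages. The linker histone H1foo, the nucleoplasmin Npm2 and the RNA-binding factor Zar1 fell by 5.65, 4.79 and 3.82 on the log2 scale. The meiotic inhibitors Wee2, a kinase acting on Cdk1, and Fbxo43 (Emi2), which holds the egg in metaphase, went from 375, 251 and 421 to 0.266, 2.67 and 2.28 RPKM and from 128, 66.7 and 195 to 0.848, 0.815 and 1.08 RPKM. Zp3, a coat protein of the egg, had 30.4, 21.8 and 51.9 RPKM at the 2-cell stage and 30.1, 36.7 and 58.9 RPKM at the 4-cell stage, and the change of this textbook oocyte transcript was not called (log2 change 0.30 ± 0.45 (SE), limma adjusted p = 0.583).

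Dppa3 (Stella), a maternal factor that protects the maternal genome from demethylation, went against its list. Its levels were 24.3, 48.2 and 59.2 RPKM at the 2-cell stage and 12402, 8284 and 9154 RPKM at the 4-cell stage (log2 change 7.86 ± 0.38 (SE), limma adjusted p = 2.14e-05), so all 4-cell embryos lay far above all 2-cell embryos. It stood at a mean of 95.5 RPKM in 1-cell and 105 RPKM in 8-cell embryos. Pou6f1, a POU-domain transcription factor, was the other member to rise, from 0.00779, 0 and 0.149 to 2.34, 2.04 and 3 RPKM. The subcortical maternal complex is a protein assembly beneath the egg membrane that embryos need to pass the 2-cell stage. Of 8 genes of the complex 7 fell (87.5%, against 20.8% of all genes) and 1 rose (median -4.12). Ooep fell from 267, 372 and 77 to 0.534, 0.502 and 2.26 RPKM, Nlrp5 (Mater) from 192, 62 and 43.9 to 3.14, 1.55 and 1.8 RPKM, and Padi6 from 140, 114 and 42.6 to 21.2, 12.6 and 19.7 RPKM, the smallest fall of these 3. Khdc3, also a member of the complex, rose from near 0 (0.917, 0 and 0 RPKM) to 4.64, 6.22 and 3.44 RPKM.

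Other genes also fell deeply, and for those in families with near-identical copies, such as the Tcl1b genes, the counting may have split reads. Tcl1b1, Tcl1b3 and Tcl1b4, oocyte-expressed relatives of the Tcl1 oncogene, fell by 8.49, 8.10 and 8.38 on the log2 scale. Gkap1 fell from 871, 1085 and 773 to 1.65, 1.9 and 2.7 RPKM, Ccdc69 from 769, 1046 and 856 to 1.52, 1.96 and 3.45 RPKM and the cysteine dioxygenase gene Cdo1 from 865, 922 and 657 to 1.34, 0.439 and 1.52 RPKM. Of the genes listed at 0 in every 4-cell embryo, the largest falls were those of Smco4 (106, 241 and 371 RPKM at the 2-cell stage), Pramef20, Fam90a1a, Epsti1, Fam217a and Cldn34b2, with log2 changes between -7.73 and -6.0.

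Genes of the machinery that removes maternal mRNA fell more often than they rose. Of 32 genes of mRNA decay tested, 14 fell (43.8%, against 20.8% of all genes) and 4 rose (12.5%, against 31.4%, median -1.50). Btg4, the licensing adaptor that brings the CCR4-NOT deadenylase to maternal mRNA, was among the most abundant nuclear transcripts of the 2-cell embryo and fell from 4693, 7100 and 5831 to 37, 29.5 and 18.7 RPKM (log2 change -7.67 ± 0.34 (SE), limma adjusted p = 1.77e-05). The deadenylases Cnot6l and Cnot7 fell from 225, 162 and 114 to 2.18, 2.44 and 0.695 RPKM and from 59.7, 107 and 92.7 to 20.9, 33.1 and 27.1 RPKM. By contrast the scaffold Cnot1 and its partner Cnot10 rose by 2.19 and 3.54, the poly(A)-binding protein Pabpc1 rose from 0.177, 0.0125 and 2.5 to 33.8, 22.5 and 25.8 RPKM, and the m6A reader Ythdf2 rose from 33.2, 4.41 and 1.44 to 59, 91.7 and 116 RPKM (call lost without 4-cell embryo 2 or 3). Of the uridylyl transferases, Tut7 had 9.04, 10.3 and 0.676 RPKM at the 2-cell stage and 3.45, 4.62 and 5.33 RPKM at the 4-cell stage, with overlapping stages and no call.

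Genes that define the 2-cell stage were divided and uneven between embryos. Of 35 such genes tested 15 fell (42.9%, against 20.8% of all genes), 16 were not called and 4 rose (median -2.43). Their summed level was 350.6, 895.9 and 5741 RPKM in the 2-cell embryos and 800.5, 412.5 and 529.3 RPKM in the 4-cell embryos, so 2-cell embryo 1 lay below every 4-cell embryo. The count of falls was 23 without 2-cell embryo 1, 13 without 2-cell embryo 2, 10 without 4-cell embryo 1 and 9 without 4-cell embryo 2 or 3, and the count of rises was 2 without 2-cell embryo 2 or any one 4-cell embryo. Zscan4d, of a zinc-finger family that acts at telomeres and is switched on in late 2-cell embryos, had 11.1, 168 and 355 RPKM at the 2-cell stage and 2.29, 0 and 1.36 RPKM at the 4-cell stage (log2 change -5.51 ± 1.21 (SE), limma adjusted p = 0.00708), with embryo 3 the highest and embryo 1 the lowest of the 2-cell stage. Zscan4c followed with 5.33, 42.8 and 271 RPKM at the 2-cell stage and 0.761, 0.0292 and 0.0533 RPKM at the 4-cell stage (call lost without 4-cell embryo 2 or 3). Duxf3, of the Dux family that activates these genes, had 11.4, 63.1 and 6.93 RPKM at the 2-cell stage and 0.0564, 0 and 0 RPKM at the 4-cell stage (log2 change -4.18 ± 0.75 (SE), limma adjusted p = 0.00287), and its highest value was in embryo 2. Tcstv1 and Tcstv3, further genes of the 2-cell program, fell from 54.2, 89.4 and 293 to 2.01, 0.816 and 0 RPKM and from 41.9, 76.2 and 319 to 12.7, 0 and 0 RPKM. Zfp352 had 12, 6.93 and 395 RPKM at the 2-cell stage and 0.334, 1.71 and 4.41 RPKM at the 4-cell stage, and with the single high embryo its change was not called (log2 change -3.68 ± 1.43 (SE), limma adjusted p = 0.0646, called without 2-cell embryo 2 or 3). The members that rose were Tdpoz2 (from 0, 0 and 0 to 23.8, 29.2 and 27.7 RPKM), Tdpoz4, AF067063 (call lost without 2-cell embryo 1 or 2 or any one 4-cell embryo, with a pseudocount of 0.1, without the level filter or after median-ratio scaling) and Nelfa (call lost without 2-cell embryo 2 or 3 or any one 4-cell embryo, with a pseudocount of 0.1 or without the level filter). The 250 bases upstream of Zscan4d are given as an example of a promoter of this class, with the TATAAA letters in capitals, which 13% of all promoters hold on either strand.
Zscan4d (GRCm38.p6, chr7:11166149-11166398, - strand): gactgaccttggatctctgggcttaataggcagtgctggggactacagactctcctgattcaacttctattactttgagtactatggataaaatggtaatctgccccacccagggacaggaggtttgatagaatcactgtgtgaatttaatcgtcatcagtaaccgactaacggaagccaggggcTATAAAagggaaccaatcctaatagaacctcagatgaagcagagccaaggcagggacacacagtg

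**Figure D2:**
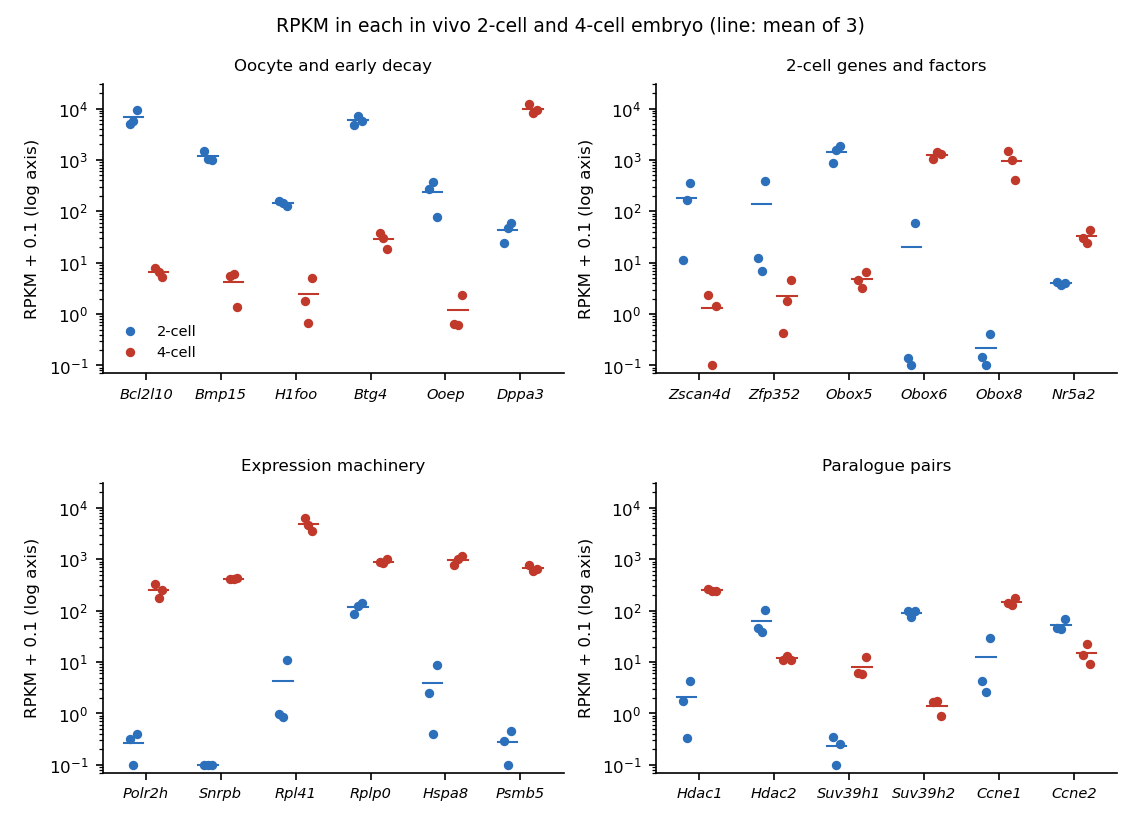
RPKM + 0.1 (log axis) of single genes in each of the 6 embryos, 1 point per embryo and a line at the mean. The stages do not overlap for any gene shown, while Zscan4d (11.1 to 355 RPKM) and Zfp352 spread widely among the 2-cell embryos.

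Transcription factors linked to genome activation rose more often than all tested genes, with 15 of 27 up (55.6% against 31.4%, median 1.61). The share that fell, 7 of 27 (25.9%), was near the 20.8% of all genes. Members of the Obox family, homeobox factors of the oocyte and early embryo, exchanged places. Obox5 fell from 871, 1547 and 1863 to 4.52, 3.17 and 6.63 RPKM (log2 change -7.92 ± 0.42 (SE), limma adjusted p = 2.6e-05), and Obox1, Obox2 and Obox7 fell by 7.08, 6.08 and 7.59 on the log2 scale. Obox8 rose from 0.046, 0 and 0.311 to 1495, 977 and 414 RPKM (log2 change 9.57 ± 0.51 (SE), limma adjusted p = 2.68e-05) and Obox6 from 0.04, 0 and 59.2 to 1049, 1416 and 1283 RPKM (log2 change 8.29 ± 1.49 (SE), limma adjusted p = 0.00287). For Obox6 the 2-cell embryos differed, since embryo 3 already had 59.2 RPKM, and the genes of the family resemble each other in sequence. The nuclear receptor Nr5a2 rose from 4.18, 3.61 and 3.95 to 30.5, 23.9 and 42.4 RPKM, and the Krüppel-like factor Klf5 from 0.0624, 0.0836 and 4.82 to 37.3, 69.7 and 58.8 RPKM. Klf17 had 749, 348 and 54.3 RPKM at the 2-cell stage and 230, 340 and 263 RPKM at the 4-cell stage and was not called. The chromatin organizer Ctcf and the cofactors Yap1 and Trim24 completed the falling members, with log2 changes of -1.61, -3.66 and -1.49.

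Polymerase and splicing genes rose more often than the 31.4% of all tested genes, while Mediator lay nearer to it. All 12 genes of RNA polymerase II tested were called, 10 up and 2 down (median 3.74). Polr2h, a subunit shared by the nuclear polymerases, rose from 0.223, 0 and 0.293 to 326, 180 and 251 RPKM (log2 change 7.72 ± 0.37 (SE), limma adjusted p = 2.14e-05), and Polr2f, also shared, from 8.6, 32.7 and 12.1 to 1292, 797 and 886 RPKM. The largest subunit Polr2a was low throughout, with 0.0912, 0.0917 and 0.0599 RPKM at the 2-cell stage and 4.76, 4.82 and 3.12 RPKM at the 4-cell stage, and rose. Polr2c fell from 397, 337 and 911 to 162, 153 and 189 RPKM (call lost without 4-cell embryo 1 or 2) and Polr2g from 74.9, 294 and 196 to 46.8, 52.3 and 58.7 RPKM (call lost without 2-cell embryo 2 or 3 or any one 4-cell embryo or without the level filter). In RNA polymerases I and III 19 of 25 genes rose and 0 fell (median 2.99; 1 fell with a pseudocount of 0.1 or without the level filter), led by Polr1c (from 0.33, 0 and 2.87 to 284, 220 and 251 RPKM). Polr1b rose from 0, 0 and 0.0208 to 21.9, 27.2 and 30.1 RPKM. In Mediator, which couples transcription factors to RNA polymerase II, 12 of 30 rose (40%) and 2 fell (median 1.03), and the 46.7% called lay below the 52.2% of all genes. Med29 rose from 0.0419, 0 and 3.12 to 294, 174 and 220 RPKM, whereas Med30 fell from 377, 850 and 1254 to 21, 15.7 and 16.7 RPKM (log2 change -5.31 ± 0.47 (SE), limma adjusted p = 0.000132) and Med15 from 40.4, 46.3 and 78.9 to 10.6, 6.79 and 7.95 RPKM. The falls in RNA polymerase II numbered 0 without 4-cell embryo 1 or 2 and 1 without 4-cell embryo 3, 2-cell embryo 2 or 2-cell embryo 3, and those in Mediator 4 without 2-cell embryo 3. Of 45 spliceosomal snRNP genes 37 rose and 0 fell (median 2.83), among them Snrpd1 (from 2.69, 4.9 and 1.66 to 463, 335 and 408 RPKM) and Sf3b1 (from 38.1, 36.1 and 35.5 to 63.5, 78.8 and 85.5 RPKM, call lost without 4-cell embryo 2 or 3, after median-ratio scaling or over nuclear genes only). Across 1-cell and 8-cell embryos 9 of 42 of these snRNP genes were higher and 5 lower at the 8-cell stage, beside 15.5% and 29.7% of all genes. The counts were 4 and 2 of 10 for RNA polymerase II and 7 and 1 of 24 for RNA polymerases I and III. For Mediator they were 3 and 5 of 30.

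Ribosomal protein genes gave the most uniform response. Of 79 cytosolic ribosomal protein genes tested, 75 rose (94.9%, against 31.4% of all genes) and 0 fell (median log2 change 5.85). The values of 77 of the 79 did not overlap between stages, beside 61.4% of all genes. The median level of the list was 1.39, 1.88, 286 and 95.1 RPKM in 1-, 2-, 4- and 8-cell embryos. The summed level was 1225, 2023 and 1638 RPKM in the 2-cell embryos and 37390, 35010 and 36790 RPKM in the 4-cell embryos. Rpl41 rose from 0.874, 0.739 and 10.7 to 6497, 4619 and 3627 RPKM (log2 change 10.47 ± 0.74 (SE), limma adjusted p = 5.54e-05), Rpl19 from 0.158, 0 and 0.829 to 1368, 1214 and 1320 RPKM and Rpl7 from 0.12, 0 and 0.293 to 423, 422 and 551 RPKM. Rplp0, an acidic stalk protein, was already present in the 2-cell embryos (87.3, 126 and 142 RPKM) and reached 873, 832 and 995 RPKM, and Rps6, the target of S6 kinase, rose from 18.6, 17.2 and 56.9 to 427, 469 and 513 RPKM. In the libraries with no embryo in common, 74 of 77 were higher at the 8-cell than at the 1-cell stage and 0 were lower, against 15.5% and 29.7% of all genes. Processed pseudogenes of this family may share reads with the genes.

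Ribosomal protein mRNAs are known to begin with a pyrimidine tract, through which their translation is regulated by mTOR. The 30 bases around 6 annotated starts are printed to show it, from 15 bases before to 15 bases from the start on, with CTTT in capitals where it lies within 5 bases of the start.
Rpl38 (chr11:114668565-114668594, + strand): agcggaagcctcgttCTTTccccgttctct
Rpl28 (chr7:4792950-4792979, + strand): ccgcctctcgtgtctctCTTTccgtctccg
Rpl35a (chr16:33056467-33056496, + strand): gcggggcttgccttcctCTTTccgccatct
Rpl18 (chr7:45718056-45718085, + strand): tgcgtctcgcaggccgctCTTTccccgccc
Rps27 (chr3:90213634-90213663, - strand): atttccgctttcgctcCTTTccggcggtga
Rps10 (chr17:27635230-27635259, - strand): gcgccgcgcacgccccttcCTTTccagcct
CTTT in this position was found in 14 of 58 ribosomal protein genes with a sequence (24.1%), in 6.07% of all 27025 promoters, in 5.72% of rising genes and in 6.03% of falling genes. The coordinates and sequences are of GRCm38.p6 from RefSeq. Rpl41 is shown with its 250 upstream bases, where CCGGAAG, a binding motif of ETS factors, is capitalized. This motif was present on either strand in 18 of 58 ribosomal protein promoters (31.0%), 14.5% of all tested genes, 18.5% of rising, 10.1% of falling and 13.7% of uncalled genes, and in 0 of 25 promoters of oocyte factors. Promoters of oocyte factors held TATAAA in 24.0% (6 of 25), against 6.91% of all tested genes, and a median of 4 CpG sites against 15.
Rpl41 (GRCm38.p6, chr10:128549169-128549418, - strand): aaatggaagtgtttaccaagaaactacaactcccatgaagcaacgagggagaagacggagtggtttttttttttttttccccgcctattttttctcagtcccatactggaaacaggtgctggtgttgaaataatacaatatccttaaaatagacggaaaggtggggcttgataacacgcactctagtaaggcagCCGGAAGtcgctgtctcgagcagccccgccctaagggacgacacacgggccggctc

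Of 40 translation initiation genes 28 rose (70.0%, against 31.4% of all genes) and 0 fell (median 2.86), with 2 falls without 2-cell embryo 3. Eif4e, which binds the mRNA cap, rose from 127, 172 and 49.3 to 638, 484 and 506 RPKM, Eif5 from 105, 76.7 and 122 to 608, 677 and 759 RPKM and Eif3l from 4.54, 0.19 and 0.671 to 145, 164 and 187 RPKM, while Eif4a1, the cap-complex helicase, had 162, 201 and 4.24 RPKM at the 2-cell stage and 47.4, 100 and 85.9 RPKM at the 4-cell stage and was not called. Of 13 elongation genes 9 rose and 1 fell. Eef1g rose from 0.0413, 0 and 0.489 to 313, 360 and 366 RPKM and Eef2 from 36.4, 16.2 and 12.9 to 158, 270 and 242 RPKM, and Btf3, of the nascent-chain complex, fell from 443, 1188 and 905 to 192, 183 and 247 RPKM. Eef1a1, which delivers aminoacyl-tRNA, was abundant at both stages, with 1034, 1263 and 881 RPKM at the 2-cell stage and 354, 635 and 688 RPKM at the 4-cell stage, and its log2 change of -0.96 missed the size of 1 (called without 2-cell embryo 3 or 4-cell embryo 3, after median-ratio scaling or over nuclear genes only). Aminoacyl-tRNA synthetase genes rose in 12 of 21 and fell in 0 (median 1.86), with Rars at 9.87, 0 and 2.76 RPKM at the 2-cell stage and 96.7, 151 and 146 RPKM at the 4-cell stage. Ribosome biogenesis genes rose in 51 of 59 (median 3.49), including the nucleolar methyltransferase Fbl (from 4.26, 2.86 and 4.02 to 120, 93.7 and 115 RPKM), the snoRNP protein Nhp2 (from 0.797, 2.95 and 1.37 to 434, 285 and 436 RPKM) and the nucleolar chaperone Npm1 (from 528, 1008 and 446 to 2572, 2496 and 2445 RPKM). The exception was Mphosph10, which fell from 96, 146 and 96.8 to 44, 49 and 53 RPKM (call lost without 2-cell embryo 2 or 4-cell embryo 1 or 2). Without 2-cell embryo 3 there were 2 falls in each of the elongation and biogenesis lists, and without 4-cell embryo 3 there were 2 in elongation. Without 2-cell embryo 2, 4-cell embryo 1 or 4-cell embryo 2 there were 0 in biogenesis. Across 1-cell and 8-cell embryos 22 of 39 initiation genes were higher and 2 lower at the 8-cell stage. The counts were 9 and 1 of 13 for elongation, 2 and 2 of 21 for synthetases and 25 and 1 of 58 for biogenesis. Of all genes 15.5% were higher and 29.7% lower.

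Of 20 chaperonin and heat shock genes 13 rose (65.0%, against 31.4% of all genes) and 0 fell (median 2.29), with 2 falls without 2-cell embryo 3. The constitutive chaperone Hspa8 rose from 2.42, 0.294 and 8.53 to 791, 996 and 1137 RPKM (log2 change 8.11 ± 0.69 (SE), limma adjusted p = 0.000109) and the chaperonin subunit Cct3 from 1.34, 0.847 and 0.722 to 153, 184 and 121 RPKM. The inducible Hspa1a and Hspa1b, known from early genome activation, were near 0 at both stages and were not tested. Proteasome genes rose in 27 of 33 (81.8%) and fell in 0 (median 4.05). Psmb5, the chymotrypsin-like subunit, went from 0.185, 0 and 0.347 to 790, 584 and 657 RPKM (log2 change 9.17 ± 0.33 (SE), limma adjusted p = 1.77e-05). The lid deubiquitinase Psmd14 rose from 6.17, 6.87 and 1.67 to 93.2, 107 and 117 RPKM. Across 1-cell and 8-cell embryos 15 of 33 proteasome genes were higher and 2 lower at the 8-cell stage, beside 15.5% and 29.7% of all genes. The counts were 7 and 2 of 20 for the chaperonin and heat shock genes.

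Genes of energy metabolism were read by genome. Nuclear genes of the respiratory chain rose in 65 of 74 (87.8%, against 31.4% of all genes) and fell in 0 (median 4.27), with 1 fall without 2-cell embryo 1. Their median level was 60.1 RPKM in 4-cell and 6.54 RPKM in 8-cell embryos. Across 1-cell and 8-cell embryos 34 of 71 were higher and 3 lower at the 8-cell stage, beside 15.5% and 29.7% of all genes. Uqcr10, of complex III, showed the second largest rise outside the predicted genes, with 0.368, 0 and 0.207 RPKM at the 2-cell stage and 2361, 2100 and 2288 RPKM at the 4-cell stage (log2 change 10.89 ± 0.31 (SE), limma adjusted p = 1.63e-05). Cox4i1 of complex IV rose from 0.0693, 0.557 and 0.234 to 220, 166 and 165 RPKM, Ndufa4 from 3.07, 6.15 and 7.58 to 52.9, 42.9 and 38 RPKM and the ATP synthase subunit Atp5b from 60.2, 37.8 and 140 to 217, 330 and 334 RPKM (call lost without 4-cell embryo 2 or 3). Mitochondrial ribosomal protein genes, also nuclear, rose in 60 of 77 (77.9%) and fell in 2 (2.6%, median 3.13). Of these genes 30 of 70 were higher and 5 lower at the 8-cell than at the 1-cell stage. Mrpl22 rose from 0.383, 0.0734 and 0 to 689, 554 and 698 RPKM, while Dap3 and Mrpl3 fell from 22.4, 42.9 and 22.5 to 3.75, 7 and 6.38 RPKM and from 17.5, 34.3 and 38 to 9.79, 10.1 and 12.2 RPKM (for Mrpl3 the call was lost without 2-cell embryo 2 or any one 4-cell embryo). The list had 1 fall without 2-cell embryo 2 or any one 4-cell embryo.

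The 15 genes of the mitochondrial genome, by contrast, rose in 4 (26.7%, against 31.4% of all genes) and fell in 5 (33.3%, against 20.8%, median -0.42). Without the level filter 2 rose and 3 fell. Cytochrome b, mt-Cytb, had 12681, 19735 and 26744 RPKM at the 2-cell stage and 20034, 17619 and 13770 RPKM at the 4-cell stage with overlapping stages and no call. The cytochrome oxidase gene mt-Co1 fell from 11888, 21772 and 29618 to 4394, 5052 and 3801 RPKM, mt-Nd2 from 7862, 13597 and 18262 to 2696, 2360 and 1886 RPKM and mt-Nd6 from 481, 1726 and 1591 to 133, 57.9 and 72.9 RPKM, and mt-Co2 from 24.3, 77.3 and 99.3 to 5.78, 2.45 and 2.15 RPKM. mt-Atp6 was the fifth to fall, by 3.14 on the log2 scale. mt-Nd5 rose from 939, 1042 and 825 to 6233, 3666 and 3576 RPKM and mt-Rnr1 from 1078, 2094 and 462 to 5626, 4050 and 3567 RPKM. The calls of mt-Co1, mt-Nd2, mt-Nd5 and mt-Rnr1 were lost without the level filter, and that of mt-Rnr1 also without 4-cell embryo 1. mt-Atp8 and mt-Nd4l, which overlap mt-Atp6 and mt-Nd4 in the genome, rose from 5.79, 18 and 10.4 to 208, 212 and 168 RPKM and from 0, 0 and 0 to 4.35, 4.75 and 3.71 RPKM, and reads of overlapping genes could be assigned to either. The 15 genes stand on 1 molecule and are transcribed as long precursors, so their opposite changes are given as measured values.

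Glycolysis, also encoded in the nucleus, was mixed, with 8 of 19 genes up (42.1%) and 5 down (26.3%, median 0.85). Of all genes 31.4% rose and 20.8% fell. Pgam1 rose from 3.7, 3.18 and 12 to 194, 404 and 299 RPKM and Hk1, the first enzyme of the pathway, from 0 in every 2-cell embryo to 2.87, 2.94 and 4.09 RPKM. Ldhb, the lactate dehydrogenase subunit of oocytes, fell from 455, 349 and 286 to 43.8, 22.8 and 18.1 RPKM and Gapdh from 32.2, 21.8 and 20.4 to 11.8, 11.3 and 10.1 RPKM (call lost without 2-cell embryo 1 or any one 4-cell embryo or with a pseudocount of 0.1). The glucose carriers exchanged: Slc2a1 was at 30.9, 14.5 and 23.4 RPKM in 2-cell embryos and listed at 0 in every 4-cell embryo (log2 change -4.52 ± 0.39 (SE), limma adjusted p = 0.000114), and Slc2a3 rose from 0, 0 and 0.0167 to 2.48, 2.35 and 1.18 RPKM. The other falls were Pgk1 and Pfkp, by 2.22 and 1.29 on the log2 scale, and 3 falls were left without 4-cell embryo 2.

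**Figure D3:**
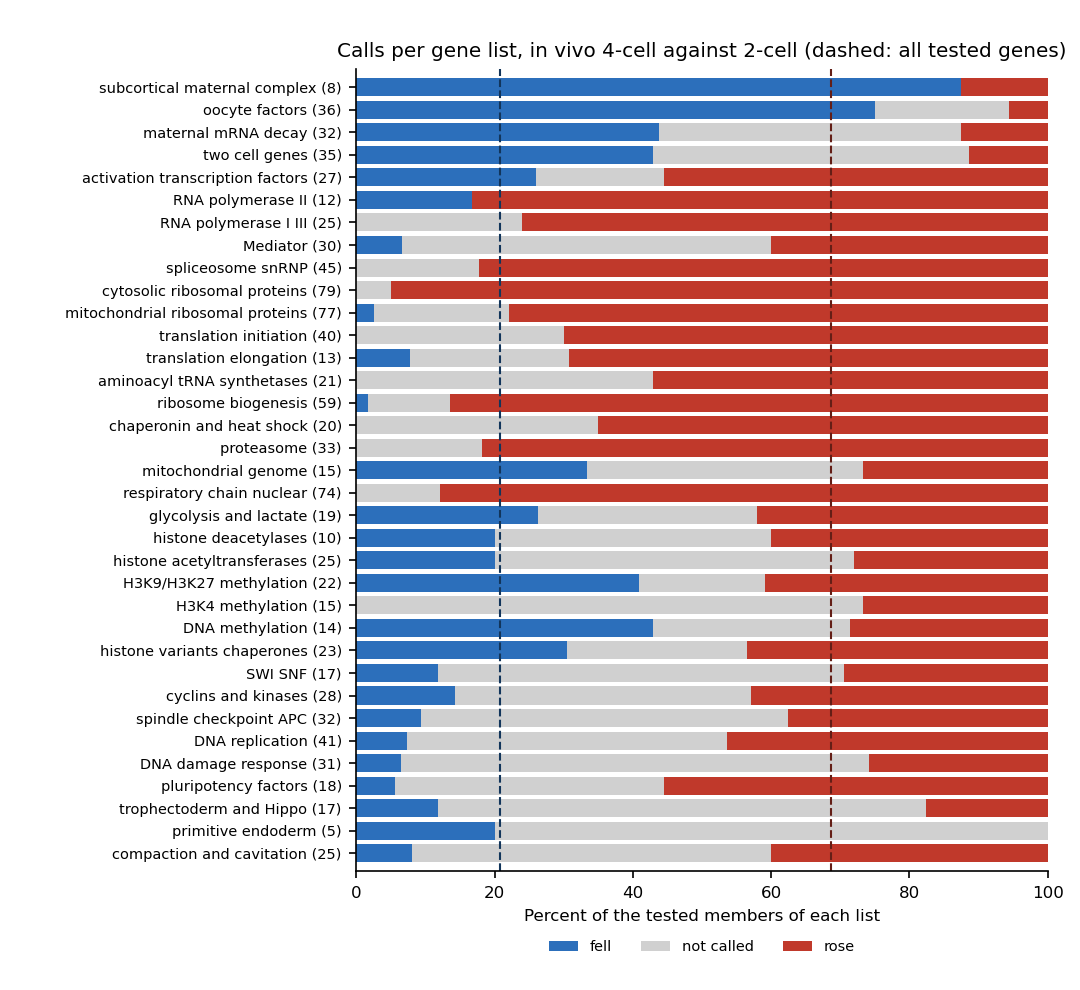
Share of the tested genes of each gene group that rose or fell from 2-cell to 4-cell embryos, in percent of the tested members (number in brackets), with dashed lines at the shares of all tested genes. Groups of protein synthesis, proteasome and respiration carry rises almost alone (75 of 79 cytosolic ribosomal protein genes), and oocyte groups carry falls (27 of 36).

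The chromatin regulators named include the largest rise and the largest fall of each list, so relatives that moved in opposite directions appear among them. How many pairs of relatives did so was not counted. Of the histone deacetylases Hdac1 rose from 1.64, 0.23 and 4.13 to 267, 242 and 241 RPKM (log2 change 6.62 ± 0.54 (SE), limma adjusted p = 9.05e-05) and Hdac2 fell from 46, 39.2 and 103 to 11.1, 13.2 and 10.7 RPKM (log2 change -2.20 ± 0.44 (SE), limma adjusted p = 0.00488). In all, 4 of 10 deacetylases rose (40%) and 2 fell (20%), the other fall being Hdac9, which was listed at 0 in every 4-cell embryo. Histone acetyltransferases and their readers rose in 7 of 25 (28.0%) and fell in 5 (20%), close to the 31.4% and 20.8% of all tested genes (median 0.71). Ep300 rose from 1.92, 0.6 and 0.945 to 9.06, 7.91 and 7.82 RPKM while its relative Crebbp had 40.4, 8.54 and 11.5 RPKM at the 2-cell stage and 15.8, 13.5 and 17.4 RPKM at the 4-cell stage and was not called. Hat1, which acetylates new histone H4, rose from 20.3, 30.8 and 9.25 to 79.6, 80.4 and 63.9 RPKM, and Msl1 fell from 39.5, 16.8 and 13.4 to 1.69, 0.704 and 2.29 RPKM. The acetyltransferase list had 3 falls without 4-cell embryo 2 or 3.

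Genes of repressive histone methylation were evenly divided, with 9 of 22 up and 9 down (40.9% each, median 0.57). Of all genes 31.4% rose and 20.8% fell. The 2 copies of the heterochromatin methyltransferase for lysine 9 of histone H3 exchanged, with Suv39h2 falling from 99.9, 75.6 and 98 to 1.59, 1.61 and 0.778 RPKM (log2 change -5.32 ± 0.36 (SE), limma adjusted p = 4.77e-05) and Suv39h1 rising from 0.255, 0 and 0.149 to 6.03, 5.71 and 12.5 RPKM (log2 change 2.93 ± 0.41 (SE), limma adjusted p = 0.000857). Ehmt2 (G9a) rose from 0.00978, 0 and 0 to 5.69, 9.1 and 3.45 RPKM and the heterochromatin protein Cbx3 from 0.86, 0.745 and 0.778 to 64.1, 47.2 and 63.9 RPKM. The core of Polycomb repressive complex 2, which methylates lysine 27, fell: Ezh2 from 67, 82.6 and 71.2 to 21.5, 10.3 and 12.5 RPKM, Eed from 394, 459 and 342 to 49.9, 50 and 84.8 RPKM, and Suz12 by 3.31 on the log2 scale. The lysine 27 demethylase Kdm6a fell from 68.8, 69.1 and 80.5 to 5.17, 10.8 and 11.4 RPKM. For H3K4 methylation 4 of 15 genes rose and 0 fell (1 without 2-cell embryo 2), and the share of 26.7% called lay below the 52.2% of all genes. The demethylases Kdm5b and Kdm5a rose from 0.344, 3.66 and 7.24 to 26.5, 34.1 and 23.1 RPKM and from 0.19, 0 and 0.248 to 11.7, 9.27 and 10.9 RPKM, together with Setd1a and Ash2l of the methylating complexes. The demethylase gene Kdm4d, active on lysine 9, was at or near 0 in all 6 embryos (0.263, 0 and 0 and 0, 0 and 0.0642 RPKM).

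Of 14 DNA methylation genes 4 rose (28.6%) and 6 fell (42.9%), against 31.4% and 20.8% of all genes. The maintenance factor Uhrf1 fell from 90.7, 63.6 and 43.3 to 3.37, 2.21 and 3.19 RPKM and its partner Dnmt1 from 22.1, 12.6 and 11.7 to 5.3, 3.25 and 5.01 RPKM, and the zygotic dioxygenase Tet3 from 39.3, 14.3 and 16 to 1.51, 0.917 and 0.884 RPKM. Zfp57, which keeps imprints, fell from 929, 735 and 59.5 to 24.1, 18.6 and 10.3 RPKM, with 2-cell embryo 3 well below the other two. Its cofactor Trim28 rose from 1.77, 2.47 and 2.81 to 80.1, 50.2 and 51.9 RPKM, as did Tet1 (from 0.803, 0.00979 and 3.15 to 16.3, 19.4 and 20.3 RPKM) and Dnmt3l (from 2.21, 0.193 and 0.972 to 25.4, 19.4 and 15.1 RPKM). Dnmt3a fell from 7.97, 3.72 and 2.89 to 1.52, 1.05 and 1.51 RPKM. The call of Dnmt1 was lost without 4-cell embryo 2, that of Dnmt3a without 2-cell embryo 1 or 2 or any one 4-cell embryo, with a pseudocount of 0.1 or without the level filter, that of Zfp57 without 4-cell embryo 3 and that of Mbd1 without 2-cell embryo 2 or 3 or 4-cell embryo 2 or 3 or without the level filter. The median of the list was 0.01 and changed sign with the setting. Histone variants and chaperones rose in 10 of 23 (43.5%) and fell in 7 (30.4%). H2afz, the H2A.Z variant that embryos need, rose from 12.2, 15.7 and 163 to 918, 800 and 983 RPKM, with 2-cell embryo 3 the highest of its stage, and Slbp, which binds the stem-loop of histone mRNA, fell from 614, 902 and 895 to 45.2, 48.8 and 53.7 RPKM (log2 change -3.98 ± 0.29 (SE), limma adjusted p = 6.25e-05). In SWI/SNF remodeling complexes 5 of 17 rose (29.4%) and 2 fell (11.8%), and the 41.2% called lay below that of all genes. Smarca4 (Brg1), a maternal regulator of genome activation, rose from 5.12, 0.0556 and 0.336 to 33.7, 30.2 and 29.9 RPKM, and the alternative ATPase Smarca2 fell from 47.2, 32.2 and 53.1 to 7.34, 1.67 and 1.65 RPKM. Without 2-cell embryo 2 there were 4 falls.

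Most cell cycle groups were called about as often as all tested genes (52.2%), of which 31.4% rose and 20.8% fell. Of 28 cyclins, kinases and regulators 12 rose (42.9%) and 4 fell (14.3%, median 0.66). Cdk1 rose from 0.405, 1.15 and 2.16 to 156, 156 and 189 RPKM (log2 change 6.30 ± 0.41 (SE), limma adjusted p = 4.2e-05), Ccna2 from 12.8, 16.6 and 23.7 to 153, 166 and 245 RPKM and Ccnb2 from 3.97, 3.41 and 4.71 to 60.1, 145 and 95 RPKM, whereas Ccnb1 was even across the transition with 699, 954 and 588 RPKM at the 2-cell stage and 844, 684 and 692 RPKM at the 4-cell stage (log2 change 0.01 ± 0.27 (SE), limma adjusted p = 0.977). Ccne1 (cyclin E1) rose from 4.18, 2.46 and 29.9 to 141, 128 and 177 RPKM and Ccne2 (cyclin E2) fell from 45, 43.4 and 68.6 to 13.4, 22.3 and 9.1 RPKM. Rb1 and E2f1, the retinoblastoma protein and its partner, fell from 37.3, 35.9 and 55 to 0.62, 3.87 and 1.18 RPKM and from 28.8, 33.7 and 19.1 to 9.48, 3.57 and 5.36 RPKM. Without 2-cell embryo 3 this list had 7 falls. Spindle checkpoint and anaphase-promoting complex genes rose in 12 of 32 (37.5%) and fell in 3 (9.38%), with 17 not called and a median of 0.28 below the 0.36 of all genes. Bub3 rose from 6.93, 5.22 and 3.21 to 220, 241 and 151 RPKM, Ube2c from 50.7, 45.7 and 48.9 to 483, 498 and 504 RPKM and Cdc20 from 30.6, 104 and 53 to 282, 494 and 490 RPKM, and Ttk and the securin Pttg1 fell from 142, 131 and 60.3 to 8.72, 9.37 and 9.49 RPKM and from 227, 439 and 489 to 111, 95.4 and 65.6 RPKM. DNA replication genes rose in 19 of 41 (46.3%) and fell in 3 (median 1.58). Rrm2, which makes deoxynucleotides, rose from 3.28, 0.442 and 5.46 to 212, 390 and 287 RPKM (log2 change 6.40 ± 0.60 (SE), limma adjusted p = 0.000152), Pcna from 3.13, 4.86 and 3.73 to 87.9, 86.7 and 71.2 RPKM and the licensing inhibitor Gmnn from 40.8, 61.7 and 108 to 230, 195 and 245 RPKM. Mcm2, a helicase subunit, had 29, 21.3 and 93.2 RPKM at the 2-cell stage and 9.89, 23.3 and 14.5 RPKM at the 4-cell stage and was not called. Orc5, Rpa3 and Orc1 were the falling members. Among 31 DNA damage genes 8 rose and 2 fell, and the share of 32.3% called was below that of all genes. Chek1 fell from 145, 162 and 176 to 24.6, 21.3 and 33.9 RPKM and Chek2 rose from 0.125, 0.048 and 2.78 to 61.7, 70.7 and 99.9 RPKM. Mdm4 fell from 176, 116 and 232 to 55.3, 24.2 and 32.3 RPKM, and Trp53 had 16.6, 22.7 and 0.613 RPKM at the 2-cell stage and 32.4, 88.1 and 47.5 RPKM at the 4-cell stage with no call (log2 change 2.58 ± 1.01 (SE), limma adjusted p = 0.0669, called without 2-cell embryo 2 or 3). The damage list had 4 falls without 2-cell embryo 2 or 3.

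Genes of cell identity differed by group. Of 18 pluripotency genes tested 10 rose (55.6%, against 31.4% of all genes) and 1 fell (median 1.96). Dppa5a rose from 3.12, 1.4 and 1.86 to 1910, 1381 and 1764 RPKM (log2 change 9.10 ± 0.35 (SE), limma adjusted p = 1.77e-05), Nanog from 0, 0 and 1.57 to 7.5, 13.1 and 17 RPKM and Zfp42 (Rex1) from 0.0597, 0 and 2.39 to 12.1, 23.1 and 15.1 RPKM. Pou5f1 (Oct4) had 9.94, 6.37 and 1.16 RPKM at the 2-cell stage and 1.79, 3.28 and 3.62 RPKM at the 4-cell stage with overlapping stages and no call (called without 2-cell embryo 3), and Sox2 stayed below 1 RPKM in every embryo. The falling member was Tcf3 (from 17.4, 10.4 and 13.3 to 3.09, 4.44 and 4.23 RPKM), and there were 3 falls without 2-cell embryo 3. For the trophectoderm and Hippo genes 3 of 17 rose (17.6%) and 2 fell (11.8%), both below the shares of all genes. Tead4, the transcription factor that starts trophectoderm, was listed at 0 in every 2-cell embryo and at 28.6, 31.9 and 24.8 RPKM at the 4-cell stage (log2 change 4.87 ± 0.33 (SE), limma adjusted p = 4.83e-05), while its coactivator Yap1 fell from 84.2, 88.6 and 32.1 to 3.8, 3.42 and 4.94 RPKM. Cdx2, the target of the pair, was listed at 0 in all 6 embryos. Gata3 fell from 9.46, 6.3 and 1.32 to 0, 0.54 and 0.4 RPKM (call lost without 2-cell embryo 1 or 2 or any one 4-cell embryo or without the level filter), and the list had 1 fall without 2-cell embryo 2 or any one 4-cell embryo. In the primitive endoderm list 0 of 5 rose (2 without 2-cell embryo 1, and 1 without 2-cell embryo 2 or after median-ratio scaling), and Dab2 fell from 21.8, 33.5 and 32.4 to 1.12, 3.19 and 0.225 RPKM. Compaction and cavitation genes rose in 10 of 25 (40%) and fell in 2 (8.0%, median 1.00), beside 31.4% and 20.8% of all genes. The gap junction gene Gja1 rose from 0, 0.0232 and 0 to 259, 252 and 336 RPKM (log2 change 8.12 ± 0.33 (SE), limma adjusted p = 1.77e-05) and the water channel Aqp3 from 0 in every 2-cell embryo to 6.28, 10.9 and 10.8 RPKM. Cdh1, E-cadherin, had 3.24, 0.0944 and 10.4 RPKM at the 2-cell stage and 6.42, 4.27 and 9.76 RPKM at the 4-cell stage and was not called, and the polarity genes Pard6b and Pard3 fell from 18.8, 35.2 and 22.4 to 1.77, 1.56 and 3.48 RPKM and from 17.7, 5.55 and 29.3 to 1.76, 1.51 and 1.28 RPKM.

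**Figure D4:**
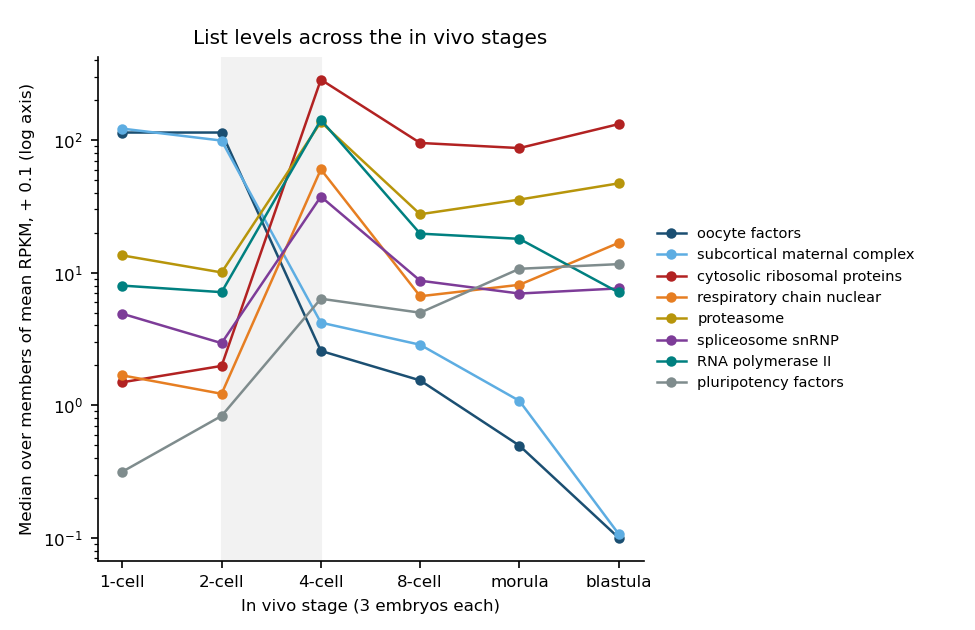
Level of 8 gene groups at each in vivo stage from the 1-cell embryo to the stage labelled blastula, as the median over the group of the mean RPKM of 3 embryos, plotted with 0.1 added on a log axis. Cytosolic ribosomal protein genes lie at 1.88 RPKM in 2-cell and 286 RPKM in 4-cell embryos, and oocyte factors at 114 and 2.47 RPKM.

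Markers of other cells were sparse. Of 18 cumulus cell markers 1 passed the level filter, Amhr2, which rose from 0, 0 and 0.0604 to 18.2, 14.2 and 19 RPKM. Ptx3, Foxl2 and Cyp11a1 were listed at 0 in all 6 embryos, and the summed RPKM of the list was 0 to 1.84 in the 2-cell and 14.4 to 20 in the 4-cell embryos, nearly all Amhr2. Of 13 oviduct, blood and fibroblast markers measured, 3 were tested and 1, the globin gene Hba-a1, rose from 0, 0.0886 and 0.373 to 23.3, 6.12 and 11.5 RPKM. Ptprc was listed at 0 in all 6 embryos and Col1a1 and Col3a1 stayed under the floor, with summed levels of 1.85 to 12.2 RPKM in 2-cell and 7.17 to 26.8 RPKM in 4-cell embryos. The embryos were not matched for sex. The Y-linked gene Eif2s3y was listed at 0 in all 2-cell embryos and had 21.8, 24.1 and 0.0147 RPKM in the 4-cell embryos, and Xist had 0, 0.00374 and 6.89 RPKM. Of 9 sex-linked genes tested 0 rose and 1, Kdm6a, fell, while 3 of 8 rose without 4-cell embryo 3 and 1 of 9 with the replicate block.

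Structural features of the genes were compared without tests. The median exon length was 3249 nt for rising, 4329 nt for falling and 3672 nt for uncalled genes. Of the fifth of genes with the shortest exons 31.9% rose and 13.5% fell, and of the fifth with the longest 21.3% rose and 27.4% fell. Protein-coding genes rose in 33.2% and fell in 21.6%, and long intergenic noncoding RNAs rose in 14.9% and fell in 30.2%. Of 101 snoRNA genes tested 30 rose and 1 fell, beside 31.4% and 20.8% of all genes. Among the chromosomes the share that rose was lowest on the X chromosome with 21.2% and highest on chromosome 17 with 37.2%.

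The same step was then followed in nuclear transfer embryos. Between NTC 2-cell and 4-cell embryos 4505 of 12324 genes (36.6%) were called, 16.4% up and 20.1% down, and between NTM embryos 3103 of 11742 (26.4%), 12.1% up and 14.3% down. The split of the calls depended on whether mitochondrial genes were counted in the library total. These made up 8.77 to 22.9% of reads in the NTC and NTM 2-cell and 29.6 to 40.4% in their 4-cell libraries. Over nuclear genes only, 2369 genes rose and 2210 fell in NTC and 1676 rose and 1523 fell in NTM, against 2027 and 2478 and 1425 and 1678 as deposited. Replicates of NTM spread more widely at 10 RPKM or more, with a median SD of 0.58 and 0.731 on the log2 scale at the 2-cell and 4-cell stages beside 0.442 and 0.476 in NTC and 0.625 and 0.306 in vivo, so a lower count in NTM does not show smaller changes. Without NTM 2-cell embryo 2 the NTM count was 1907. Of the genes that rose in vivo and were testable, 1538 of 3427 (44.9%) rose in NTC and 1115 of 3317 (33.6%) in NTM, and 36 and 16 fell. Of those that fell in vivo, 1667 of 2595 (64.2%) fell in NTC and 1238 of 2560 (48.4%) in NTM. Cytosolic ribosomal protein genes rose in 68 of 76 in NTC and in 68 of 78 in NTM and fell in 0 of either, with median log2 changes of 2.84 and 3.30 beside 5.85 in vivo. Oocyte factors fell in 31 of 35 in NTC and 23 of 35 in NTM.

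The size of the step was compared by an interaction test on the 12 libraries of each pair of embryo types. The NTC step differed from the in vivo step for 1895 of 13221 genes (14.3%), lower in 1581 (12%) and higher in 314 (2.38%). The NTM step differed for 1294 of 13062 genes (9.91%), lower in 1051 (8.05%) and higher in 243 (1.86%). Over nuclear genes only the step was lower for 1227 and higher for 416 genes in NTC and lower for 798 and higher for 296 in NTM, and after median-ratio scaling lower for 1234 and higher for 426 in NTC and lower for 765 and higher for 273 in NTM. Of the 15 genes of the mitochondrial genome 7 had a higher and 2 a lower step in each test. The tests share the in vivo embryos, so they are given side by side. Among cytosolic ribosomal protein genes the step was called lower for 50 of 78 in NTC and 35 of 78 in NTM, beside 12% and 8.05% of all genes, among nuclear respiratory chain genes for 41 and 29 of 74, and among proteasome genes for 13 and 8 of 33. For RNA polymerase II genes it was lower in 9 and 6 of 12. Oocyte factors differed in 6 of 35 in NTC, 3 in each direction, and in 3 of 35 in NTM.

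Mt1, at 13732, 16078 and 12698 RPKM in the in vivo 4-cell embryos, had 49.1, 12.7 and 34.1 RPKM in NTC and 43.2, 27.7 and 22.4 RPKM in NTM 4-cell embryos, and the steps differed by -11.50 and -9.50 on the log2 scale (limma adjusted p = 6.46e-05 and 2.64e-05). Dppa3 had 25.7, 22.8 and 39 RPKM in NTC 2-cell and 47.9, 17.8 and 28.4 RPKM in NTC 4-cell embryos, a log2 change of 0.03 that was not called. Uqcr10 reached 2.87, 5.35 and 3.67 RPKM in NTC and 16.5, 5.78 and 2.97 RPKM in NTM. Zscan4d was listed at 2.29, 0.292 and 0 RPKM in NTC 2-cell embryos and 0, 0 and 0 RPKM in NTM 2-cell embryos, beside 11.1 to 355 RPKM in vivo. Rab21, a GTPase of endosomes, fell from 543, 593 and 377 to 2.71, 2.95 and 1.95 RPKM in vivo, whereas NTC embryos went from 312, 363 and 501 to 53.1, 125 and 186 RPKM. No difference of the step was called for Rplp0, with interaction terms of -0.54 ± 0.38 (SE) for NTC and -0.45 ± 0.48 for NTM, or for Btg4, with 0.60 ± 0.62 and 0.48 ± 0.85.

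**Figure D5:**
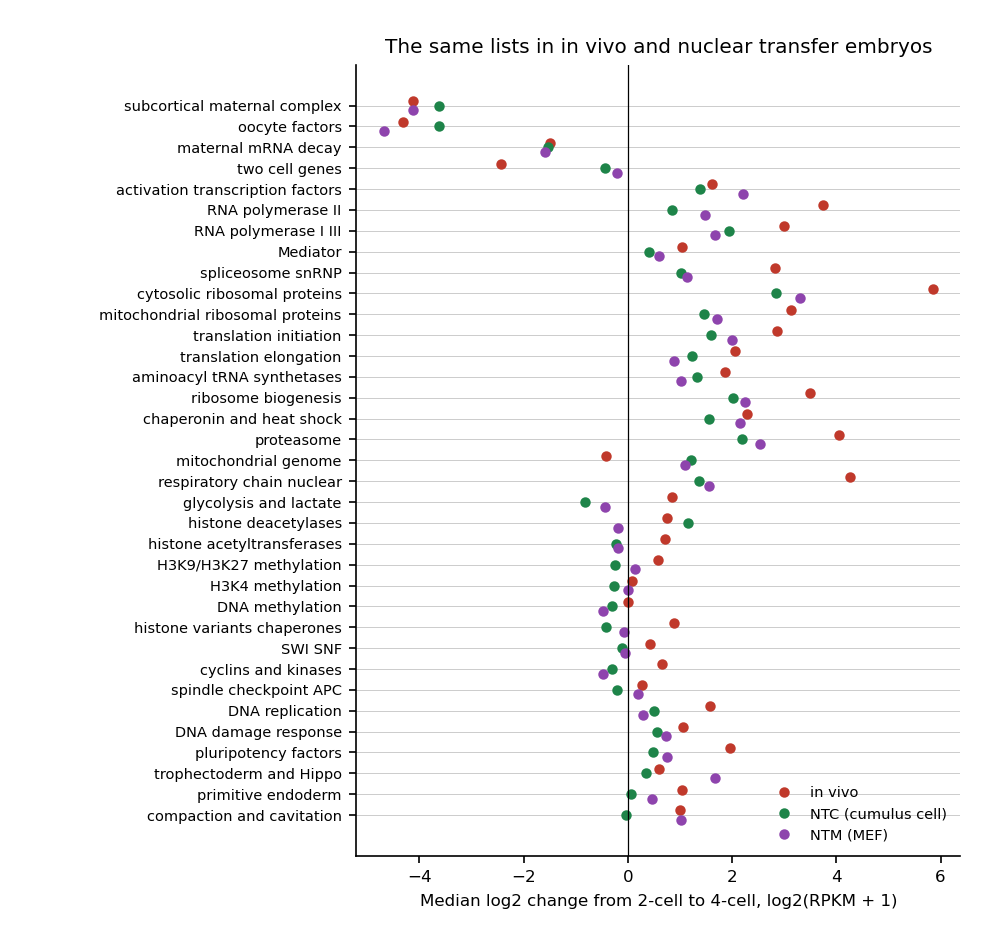
Median log2 change across the transition of each gene group in in vivo, NTC and NTM embryos, 1 point per group and embryo type. Cytosolic ribosomal protein genes stand at 5.85 in vivo, 2.84 in NTC and 3.30 in NTM, and oocyte factors at -4.31, -3.63 and -4.68.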

How the data were processed

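Single embryos were lysed, cDNA was tailed, amplified and sequenced without molecular identifiers, and the authors mapped filtered reads with TopHat and Bowtie2 and counted them per gene with HTSeq. The submitters' processing notes also name Bowtie 0.12.2 and the mouse genome build mm8, and whether counting used strand was not given in the sources used here. The deposited values are RPKM per Ensembl gene, normalized by the authors to exon length and library total. Because they are not counts, log2(RPKM + 1) was tested with limma 3.58.1 (lmFit, eBayes with trend) in R 4.3.3 on genes with a mean of at least 0.5 RPKM, with Benjamini-Hochberg adjustment over all of them, and a call required an adjusted p under 0.05 and a log2 change of at least 1 in size. Groups came from the labels. Nothing in the labels says more about the origin of the 3 embryos of a stage, so p-values measure the spread between them.

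Gene symbols and exon lengths came from GENCODE M21 and promoters from RefSeq (GRCm38.p6), matched by symbol for 9104 of 12913 tested genes with a symbol of their own. No coordinates of the deposited build are printed. The depth of each library was worked back from the smallest steps between its RPKM values, and intervals and floors from it cover counting error alone.

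Genes named in the text are the 8 largest rises and falls among called genes whose stages do not overlap, the key members of each gene group, the largest rise and fall of each group and the few members against its direction, the 6 largest changes from or to 0, the 5 highest means of each stage and the 4 genes in each direction with the largest differences from nuclear transfer embryos, leaving out predicted genes except among the highest means. A few more members were named after their values were seen to complete a short count: Obox1, Obox2, Obox7, Ctcf, Trim24, Suz12, Setd1a, Ash2l, Pgk1, Pfkp, mt-Atp6 and the 6 ribosomal protein genes with a printed start. The members and gene groups were chosen with earlier results of these data known. Gene groups are described by counts and medians with no set test. The fits were tested on simulated data with 200 changed genes, far fewer than were called in the embryos. They missed many of the changes put in, most of all in NTM embryos. With so few changed genes the adjustment is stricter, so the share missed does not carry over to the reported fits. Alternatives were another pseudocount (0.1), no level filter, median-ratio scaling, nuclear genes only, a replicate block, 1 fit over all 20 groups, no fold threshold and leaving out each embryo.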

Additional observations from a re-analysis of the deposited data

Results flagged for a closer look

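The step from the 2-cell to the 4-cell stage differed between embryo types by the limma interaction test (adjusted p under 0.05 and a difference of at least 1 on the log2 scale). It did so for 1895 genes between NTC and in vivo embryos and for 1294 genes between NTM and in vivo embryos. Both tests use the same in vivo embryos. Among genes called in vivo and in both tests, Mt1 differed by -11.5 in NTC and -9.5 in NTM, Uqcr10 by -9.15 and -8.13, Hist1h2ap by -8.4 and -8.92, and Dppa3 by -7.83 and -8.63, each value being the nuclear transfer step minus the in vivo step in log2(RPKM + 1). In the other direction mt-Nd6 differed by 6.29 and 5.82, Rab21 by 5.32 and 4.72, Zscan4d by 4.81 and 5.51, and the translation termination factor gene Gspt2 by 3.96 and 5.8. Gspt2 had 48.4, 23.4 and 17.4 RPKM at the 2-cell stage in vivo. No cause of these differences was tested.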

How the results depend on the processing

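The count of the in vivo transition stayed within 1.5 times of 6784 under every alternative run: 6915 with a pseudocount of 0.1, 6012 of 20553 without the level filter, 6744 after median-ratio scaling, 6818 over nuclear genes only, 7728 with 1 fit over all 20 groups and 5528 to 7139 leaving out 1 embryo at a time. The 1-cell to 8-cell count ranged from 3841 to 6089 when 1 embryo was left out. For the NTM transition the count was 6114 with 1 fit over all groups and 1907 to 2669 leaving out 1 embryo, and for the NTM difference from in vivo it was 2667 with 1 fit over all groups. A limit of 5 RPKM in place of 1 left 222 genes listed at 0 at the 2-cell stage and 118 listed at 0 at the 4-cell stage. Same-numbered 2-cell and 4-cell embryos did not deviate together from their stage means, with correlations of -0.054, -0.009 and -0.03. With 3 embryos per stage these values cannot tell whether same-numbered embryos shared an origin. With the replicate block 6418 genes were called. Medians near 0 changed sign. That of the DNA methylation genes was -0.03 without the level filter, -0.12 after median-ratio scaling, -0.01 over nuclear genes only and -0.45 to 0.25 leaving out 1 embryo. The cumulus markers had -0.04 without the filter, and the oviduct, blood and fibroblast markers -0.07 to 0.74 leaving out 1 embryo, and the cause was not tested. The same held for single genes that were not called: Ccnb1 had -0.15 after median-ratio scaling, -0.04 over nuclear genes only and -0.15 to 0.20 leaving out 1 embryo, and Tut7 had 0.10 with a pseudocount of 0.1 and -0.97 to 0.40. Leaving out 1 embryo gave -0.44 to 0.10 for mt-Cytb, -0.46 to 0.59 for Crebbp, -1.27 to 1.37 for Eif4a1 and -0.90 to 0.98 for Klf17. Of 185 genes named and tested, 154 kept their side of the threshold and direction under every alternative of the list, 20 lost a call under at least 1, 5 gained one, including Eif2s3y without 4-cell embryo 3, and the 6 just given changed sign without a call. Depth limits genes under about 0.1 RPKM, where a value rests on a few reads.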
